A study of Homo sapiens with 17 samples.

Results

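The genes described here are 10 regulators of the Hippo pathway, taken by Ensembl ID from the 19867 genes of the table: the kinases LATS1 and LATS2, their scaffold SAV1, the upstream proteins NF2, WWC1 and FRMD6, the YAP-binding proteins AMOTL1, AMOTL2 and PTPN14, and the LATS-binding adaptor AJUBA. They were chosen by their role in the pathway, with earlier results of these data known. Newly made RNA was counted by SLAM-seq, in which thiouridine taken up by the cells is alkylated and read as C in place of T, so that T>C reads mark RNA made while the label was present. The cells were SNU-761, an established line from a liver carcinoma, wild type in the labels, and all treated cells were collected after 4 h. One experiment compared the pan-TEAD inhibitor VT107 at 0.1 and 2.15 µM with the matching amount of DMSO (2 libraries per group). The other compared a biosimilar of intetumumab, an antibody to ITGAV-containing integrins, at 1.5 and 5 µg/ml with an isotype IgG1 at 5 µg/ml (3 libraries per group). Each experiment also had 1 library from untreated cells without thiouridine. Nothing in the labels says that replicates were separate cultures, so the tests weigh differences against a spread that may be technical only.

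In the Hippo pathway, the STK3 and STK4 kinases with SAV1 activate LATS1 and LATS2, which phosphorylate the coactivators YAP and TAZ and keep them out of the nucleus. NF2, WWC1 and FRMD6 bring these kinases to the cell membrane, and angiomotin-like proteins and PTPN14 bind YAP directly. Nuclear YAP and TAZ act through the TEAD factors, and several genes that restrain the pathway's output, AMOTL2 and LATS2 among them, are themselves TEAD targets and so form negative feedback. In liver the pathway is best known for limiting organ size. VT107 blocks the last step, the use of TEAD, and integrins are among the surface receptors known to feed into YAP.

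No member passed the test in any comparison: 0 of the 9 that had enough counts, by edgeR's quasi-likelihood test at an adjusted p under 0.05. Hardly any gene did, since between 0% and 0.109% of all genes tested were called in each comparison, and 0 of 9 is near that share. AMOTL2, FRMD6 and NF2 nevertheless stood below their control in all 4 comparisons of a treatment with its control, with no overlap between libraries in any of them. Their log2 fold changes lay between -0.37 and -1.17, and each had an unadjusted p under 0.05. Of the 8847 genes tested in both experiments, 1.07% lay below the control in every library in all 4 comparisons, and 0.418% also had an unadjusted p under 0.05 in each. The 4 comparisons rest on 2 sets of controls, since both doses of an agent share theirs. Alternative fits reuse the same libraries, and these genes are named for this pattern, so the next counts describe stability and add no support. Of 162 values of these 3 genes from alternative fits of the 4 comparisons, 162 were below 0. In 143 the unadjusted p was under 0.05, and in 10 the adjusted p was. The highest unadjusted p among them was 0.181, for AMOTL2 at 0.1 µM without VT107 replicate 1. The other members did not share this pattern. AJUBA stayed within 1.18-fold of its control throughout, and WWC1 lay below its control in every library with the antibody at 5 µg/ml and not in the other 3 comparisons. LATS1 and SAV1 had higher means with the antibody than with the isotype, but libraries overlapped for LATS1 at 1.5 µg/ml and SAV1 at 5 µg/ml. PTPN14 lay below DMSO in every library at both VT107 doses and overlapped the isotype at both antibody doses. AMOTL1 (ENSG00000166025, chr11:94706460-94876748) was hardly counted, at 0 to 10 counts per labelled library and 44 in all, and was not tested.

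Labelled libraries held between 435343 and 1778876 T>C counts, and the unlabelled libraries 10702 and 4553. Levels below are counts per 1e6 after TMM scaling (CPM), given as mean ± SD, and each experiment was scaled apart. Among the 10 members the unlabelled libraries had 0 to 15 counts, at most 3.93% of the mean labelled count (NF2, antibody experiment). These are raw T>C counts without the total reads of each library. The share is therefore not corrected for sequencing depth and is no upper bound on the background. The number of T>C reads also depends on how many Ts the counted end of a transcript holds, so the genes are not ranked against each other here.

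Promoter sequences are shown for 3 members that stood low together, AMOTL2, FRMD6 and NF2, and for AJUBA, which did not, because VT107 acts on factors that bind DNA. Each is the 250 bases before an annotated start in RefSeq's GRCh38.p14 table (for AMOTL2, AJUBA and FRMD6 a start inside the gene's full span), printed 5′ to 3′ in lower case. Capitals mark the core of the TEAD motif, CATTCC or its reverse complement GGAATG. For a gene with several starts, a start with these letters was printed if there was any, otherwise the most upstream. AMOTL2 and AJUBA are therefore shown at the start that has the letters, and their other start has none.
AMOTL2, chr3:134374448-134374697, - strand: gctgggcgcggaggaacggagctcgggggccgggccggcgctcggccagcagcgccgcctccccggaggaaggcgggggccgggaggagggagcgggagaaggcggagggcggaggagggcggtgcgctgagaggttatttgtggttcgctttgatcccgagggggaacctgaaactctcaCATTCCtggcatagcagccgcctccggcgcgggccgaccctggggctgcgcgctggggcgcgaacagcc
FRMD6, chr14:51488878-51489127, + strand: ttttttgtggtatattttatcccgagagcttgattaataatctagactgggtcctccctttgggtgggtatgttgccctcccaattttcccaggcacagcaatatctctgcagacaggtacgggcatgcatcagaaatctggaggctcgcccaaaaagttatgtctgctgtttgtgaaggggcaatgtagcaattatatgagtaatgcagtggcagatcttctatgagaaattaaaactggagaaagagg
NF2, chr22:29603306-29603555, + strand: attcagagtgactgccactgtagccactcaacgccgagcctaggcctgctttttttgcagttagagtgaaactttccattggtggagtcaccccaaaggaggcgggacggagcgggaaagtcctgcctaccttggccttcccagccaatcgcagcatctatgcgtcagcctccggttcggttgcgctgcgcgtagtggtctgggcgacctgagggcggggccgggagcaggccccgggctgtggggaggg
AJUBA, chr14:22976843-22977092, - strand: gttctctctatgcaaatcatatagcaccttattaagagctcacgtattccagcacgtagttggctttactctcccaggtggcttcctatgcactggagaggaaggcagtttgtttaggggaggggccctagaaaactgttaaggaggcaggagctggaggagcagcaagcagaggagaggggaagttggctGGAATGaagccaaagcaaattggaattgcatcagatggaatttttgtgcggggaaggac

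All 10 members were in that table, with 14 start windows of 300 bases that run from before to shortly after the start. The core motif was present on either strand for 4 of the 10, at any of their starts, against 14% of all 35116 windows. A member with several windows has more chances of a match, and 4 of the 14 member windows held one. In AMOTL2 it lay at bases -69 to -64 of 1 of 2 starts, in AJUBA at -59 to -54 of 1 of 2, in PTPN14 at -200 to -195, and in LATS2 at bases 10 to 15 after the start. The letters were not in the windows of FRMD6, NF2, WWC1, LATS1, SAV1 or AMOTL1. A match to 6 letters is a description of the sequence and not a binding site. AMOTL2 and AJUBA both had the letters, and FRMD6 and NF2 did not. A link between the letters and the values was not tested, and sequence outside the 300-base windows was not searched.

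AMOTL2 (ENSG00000114019) belongs to the angiomotin-like proteins, which hold YAP and TAZ at cell junctions, and lies at chr3:134355345-134375417. In the VT107 experiment it was at 2737 and 3163 CPM in the DMSO libraries, at 2053 and 2367 with 0.1 µM and at 2005 and 1504 with 2.15 µM. All 4 treated libraries thus lay below both controls, and both libraries at the higher dose lay below both at the lower dose. With 2 libraries per group, 19.3% and 20.6% of all genes tested lay below DMSO at 0.1 and 2.15 µM. Between the doses 39.1% did not overlap, in either direction. The log2 fold change of AMOTL2 was -0.42 at 0.1 µM (SE 0.18, edgeR adjusted p = 0.403) and -0.75 at 2.15 µM (SE 0.18, adjusted p = 0.171), a 1.68-fold lower mean at the higher dose. Between the doses it was -0.33 (SE 0.18, adjusted p = 0.952).

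With the antibody, AMOTL2 was at 935, 978 and 1011 CPM in the isotype libraries, at 718, 726 and 676 with 1.5 µg/ml and at 802, 702 and 695 with 5 µg/ml. The 6 antibody libraries all lay below the 3 isotype libraries, while the doses overlapped. The log2 fold changes were -0.46 (SE 0.12, edgeR adjusted p = 0.40) at 1.5 µg/ml and -0.41 (SE 0.12, adjusted p = 0.292) at 5 µg/ml. DESeq2 called AMOTL2 lower in 3 comparisons, at 2.15 µM (adjusted p = 0.00282), 1.5 µg/ml (0.00983) and 5 µg/ml (0.0171). Over all genes DESeq2 called 188 of the 10083 entered lower at 2.15 µM, and 31 and 70 of the 9024 entered lower at the antibody doses. It gave no adjusted p for some genes entered, so fewer could be called. All counts of AMOTL2 in labelled libraries were multiples of 3, so fewer reads may lie behind them, and dividing them by 3 moved its unadjusted p at 0.1 µM from 0.0453 to 0.0694 (0.121 with total count scaling).

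FRMD6 (ENSG00000139926), a FERM-domain protein also called Willin that acts upstream of the LATS kinases, lies at chr14:51396431-51730727. It was at 1231 and 935 CPM in DMSO, at 561 and 619 with 0.1 µM VT107 and at 571 and 392 with 2.15 µM. Its treated libraries lay below both controls, and the doses overlapped. FRMD6 had the largest log2 fold change among the members tested against DMSO at 2.15 µM, -1.17 (SE 0.24, edgeR adjusted p = 0.125), a 2.25-fold lower mean. At 0.1 µM it was -0.88 (SE 0.24, adjusted p = 0.257).

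In the antibody experiment FRMD6 was at 707, 643 and 637 CPM with the isotype, at 480, 504 and 559 with 1.5 µg/ml and at 523, 410 and 565 with 5 µg/ml. Again no antibody library reached the lowest isotype library, and the doses overlapped. The log2 fold changes were -0.37 (SE 0.15, edgeR adjusted p = 0.899) and -0.41 (SE 0.15, adjusted p = 0.414). At 1.5 µg/ml the unadjusted p was under 0.05 in 12 of 15 alternative fits. By edgeR it was 0.0840 and 0.0691 without antibody replicates 1 and 2, and 0.0917 without isotype replicate 1. At 5 µg/ml it was under 0.05 in 13 of 15. By edgeR it was 0.0751 without antibody replicate 2 and 0.0605 without isotype replicate 1. DESeq2 called FRMD6 lower at both VT107 doses (adjusted p = 0.0166 at 0.1 µM and 0.000131 at 2.15 µM) and at neither antibody dose. Over all genes it called 124 and 188 of the 10083 entered lower at the VT107 doses.

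NF2 (ENSG00000186575) encodes merlin, a tumour suppressor that recruits LATS kinases to the membrane, and lies at chr22:29603556-29698600. It was at 313 and 243 CPM in DMSO, at 146 and 177 with 0.1 µM VT107 and at 155 and 166 with 2.15 µM. The log2 fold changes at the 2 doses were -0.78 (SE 0.25, edgeR adjusted p = 0.297) and -0.79 (SE 0.25, adjusted p = 0.292), with an interval of -0.59 to 0.56 for the difference between the doses. With the isotype it was at 193, 271 and 238 CPM, with 1.5 µg/ml at 147, 173 and 138, and with 5 µg/ml at 150, 164 and 98.6. Treated and control libraries did not overlap for either agent. The log2 fold changes with the antibody were -0.61 (SE 0.23, edgeR adjusted p = 0.842) and -0.77 (SE 0.23, adjusted p = 0.298), and DESeq2 did not call NF2 in any comparison. At 2.15 µM its unadjusted p of 0.0118 went to 0.0624 without DMSO replicate 1, 0.0765 without VT107 replicate 1 and 0.0508 without VT107 replicate 2.

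**Figure D1:**
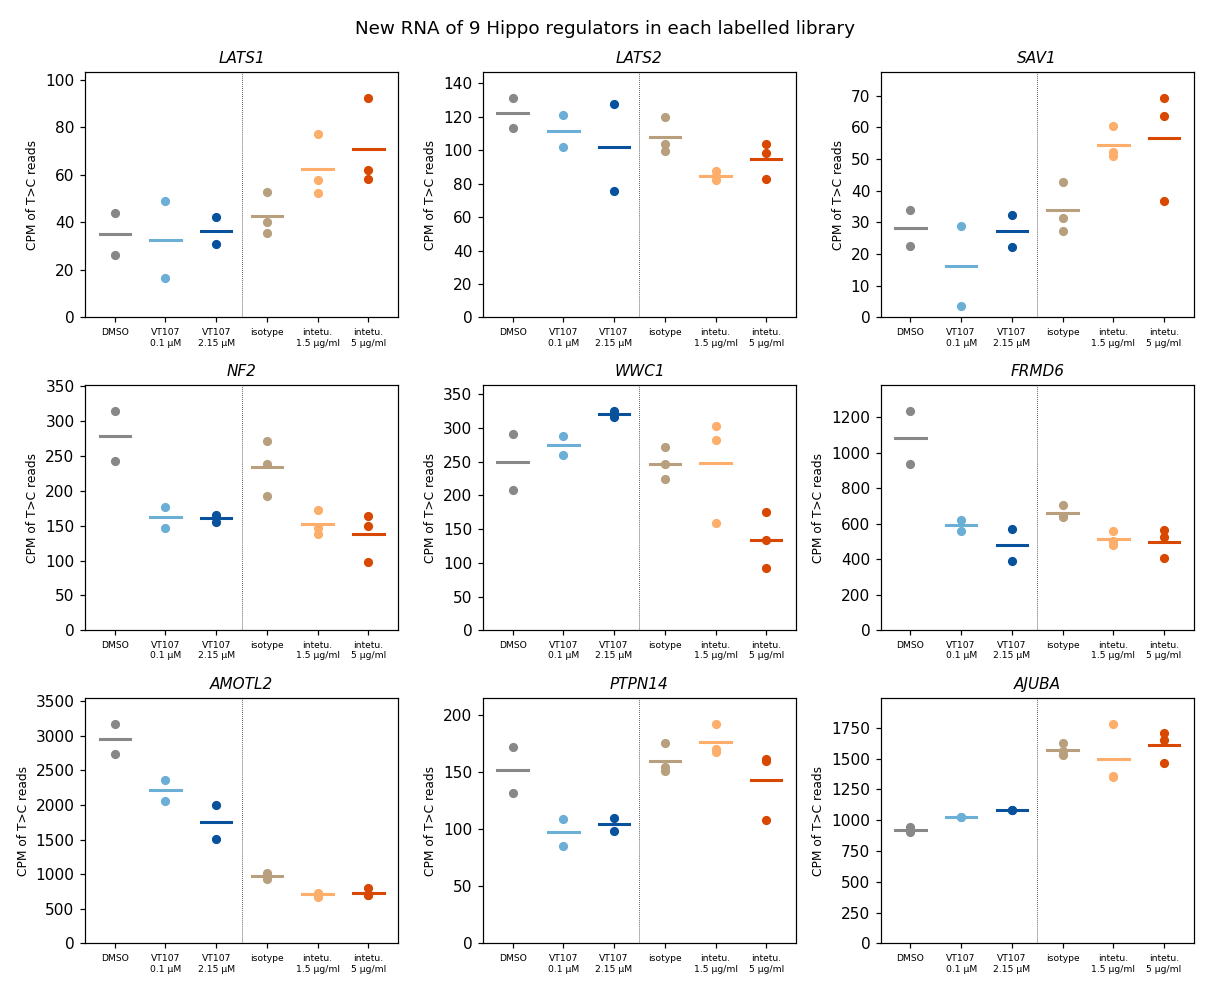
CPM of T>C reads (y axis, from 0) in each labelled library for the 9 members tested, by group (x axis), with VT107 libraries left and antibody libraries right of the dotted line, which were scaled apart. Points are libraries and bars are group means (n = 2 for VT107 and DMSO, n = 3 for antibody and isotype); for AMOTL2, FRMD6 and NF2 no treated point reaches a control point of its own experiment.

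WWC1 (ENSG00000113645), also called KIBRA, works with NF2 upstream of the LATS kinases and lies at chr5:168291645-168472303. It was at 207 and 291 CPM in DMSO, at 287 and 260 with 0.1 µM VT107 and at 324 and 315 with 2.15 µM. Only the higher dose lay above both controls, with a log2 fold change of 0.36 (SE 0.24, edgeR adjusted p = 0.626). In the antibody experiment WWC1 was at 224, 246 and 271 CPM with the isotype, at 303, 281 and 159 with 1.5 µg/ml and at 134, 176 and 92.2 with 5 µg/ml. The 5 µg/ml libraries all lay below the isotype, a log2 fold change of -0.89 (SE 0.27, edgeR adjusted p = 0.328), while at 1.5 µg/ml it was 0.014 (SE 0.26, interval -0.56 to 0.59). Replicate 3 at 1.5 µg/ml stood apart from the other two at that dose, and it is 1 of the 2 shallowest labelled libraries; without it the value is 0.24. The value at 5 against 1.5 µg/ml was -0.90 (SE 0.28, edgeR adjusted p = 0.778).

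LATS2 (ENSG00000150457, chr13:20973036-21061586), the kinase that is itself a TEAD target, was at 131 and 113 CPM in DMSO, at 121 and 102 with 0.1 µM VT107 and at 128 and 75.6 with 2.15 µM. The groups overlapped at both doses, and the log2 fold changes were -0.13 (interval -0.89 to 0.64) and -0.26 (interval -1.01 to 0.50). With the isotype it was at 104, 120 and 99.3 CPM, with 1.5 µg/ml at 82.1, 84.5 and 87.7, and with 5 µg/ml at 104, 82.5 and 98.6. Only the 1.5 µg/ml libraries lay below all isotype libraries (log2 fold change -0.35, SE 0.21, edgeR adjusted p = 0.945).

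LATS1 (ENSG00000131023, chr6:149658153-149718101), the paralogous kinase, and SAV1 (ENSG00000151748, chr14:50633580-50668306), the scaffold that joins the upstream kinases to LATS, had the fewest counts among the members tested. In DMSO LATS1 was at 44.0 and 26.1 CPM, and the VT107 libraries spanned 16.5 to 49.0 CPM, so the groups overlapped. With the isotype LATS1 was at 35.5, 40.0 and 52.9 CPM, with 1.5 µg/ml at 52.5, 57.9 and 77.2, and with 5 µg/ml at 62.2, 58.2 and 92.2. The 5 µg/ml libraries lay above every isotype library (log2 fold change 0.73, SE 0.29, edgeR adjusted p = 0.482). SAV1 was at 27.3, 42.8 and 31.3 CPM with the isotype, at 60.5, 51.0 and 52.2 with 1.5 µg/ml and at 36.9, 63.6 and 69.2 with 5 µg/ml. Here the 1.5 µg/ml libraries lay above every isotype library (log2 fold change 0.69, SE 0.31, edgeR adjusted p = 0.903), and at 5 µg/ml, where groups overlapped, it was 0.77 (SE 0.31, adjusted p = 0.483). In the VT107 experiment SAV1 was at 22.5 and 33.8 CPM in DMSO, at 3.53 and 28.9 with 0.1 µM and at 22.2 and 32.4 with 2.15 µM. The lowest of these is 3 counts in 1 library, and the log2 fold change at 0.1 µM was -0.81 (SE 0.79). Without that library it is 0.027.

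PTPN14 (ENSG00000152104, chr1:214348700-214551602), a tyrosine phosphatase that binds YAP, was at 132 and 172 CPM in DMSO, at 110 and 85.4 with 0.1 µM VT107 and at 99.0 and 110 with 2.15 µM. The 4 treated libraries lay below both controls, with log2 fold changes of -0.64 (SE 0.29, edgeR adjusted p = 0.435) and -0.54 (SE 0.29, adjusted p = 0.545). With the isotype PTPN14 was at 154, 175 and 151 CPM, with 1.5 µg/ml at 168, 170 and 192, and with 5 µg/ml at 108, 160 and 161. Both doses overlapped the isotype, with log2 fold changes of 0.14 (interval -0.30 to 0.57) and -0.15 (interval -0.59 to 0.29).

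AJUBA (ENSG00000129474, chr14:22971177-22982551), a LIM-domain adaptor, binds the LATS kinases and restrains them, unlike the other members, which limit YAP and TAZ. It was at 942 and 901 CPM in DMSO, at 1025 and 1029 with 0.1 µM VT107 and at 1085 and 1085 with 2.15 µM. Both doses lay above both controls, by log2 fold changes of 0.16 (interval -0.19 to 0.51) and 0.24 (interval -0.11 to 0.58). With the isotype AJUBA was at 1561, 1622 and 1528 CPM, with 1.5 µg/ml at 1348, 1355 and 1777, and with 5 µg/ml at 1461, 1653 and 1710. Both doses overlapped the isotype, with log2 fold changes of -0.075 (interval -0.35 to 0.20) and 0.035 (interval -0.24 to 0.31).

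**Figure D2:**
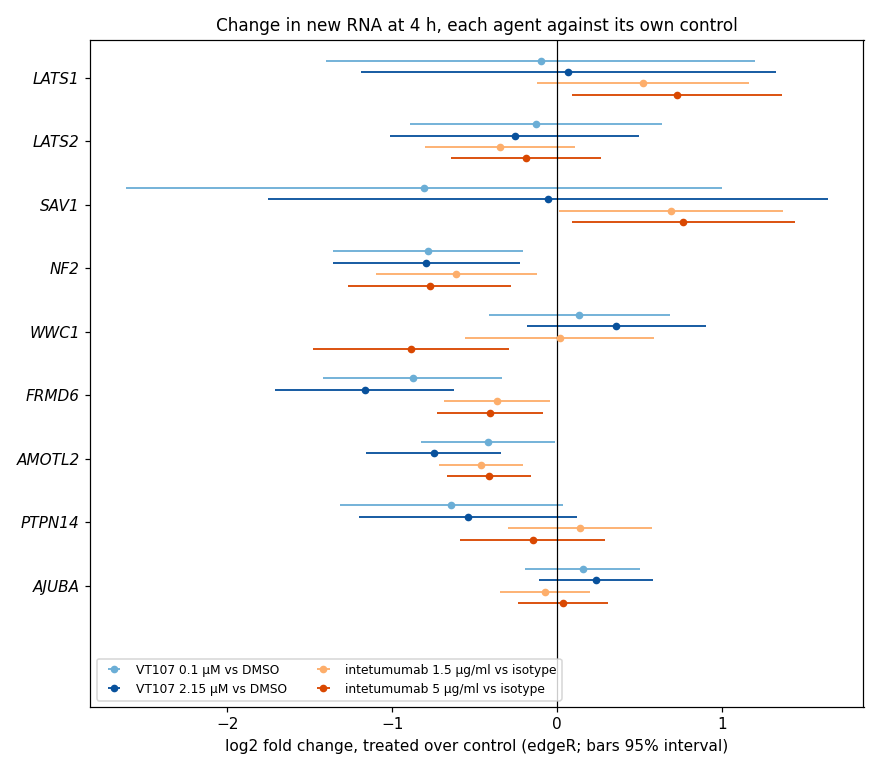
Log2 fold change of new RNA (x axis) for the 9 members tested (y axis), treated over the agent's own control, from edgeR; points are estimates and bars 95% intervals, not adjusted for the number of genes. The intervals of AMOTL2, FRMD6 and NF2 lie below 0 in all 4 comparisons, and those of LATS2, PTPN14 and AJUBA include 0 in all 4.

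Counts of members need the background of all genes. At 2.15 µM VT107, 3 of 9 members had an unadjusted p under 0.05 and a lower value, where 6.3% of the 10083 genes tested did, 0 of 9 had such a p and a higher value, against 5.28%, and 0.109% of these genes were called after adjustment. The members' libraries lay wholly below DMSO for 4 of 9 and wholly above for 2, against 20.6% and 24.1% of all genes. The median log2 fold change was -0.26 over the members and 0.028 over all genes tested. At 0.1 µM, 3 of 9 members were again lower at that level and 0 higher, against 6.11% and 5.98% of all genes, with 4 of 9 below and 1 above DMSO in every library, against 19.3% and 20.4%. The medians there were -0.42 and 0.0089, and edgeR called 0% of genes. Both VT107 comparisons use the same 2 DMSO libraries.

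With the antibody at 5 µg/ml, 4 of 9 members were lower and 2 higher at an unadjusted p under 0.05, against 4.9% and 4.33% of the 9024 genes tested, and 0.0887% of genes were called. In 4 of 9 all libraries lay below the isotype and in 1 above, against 8.26% and 7.64% of genes, and the medians were -0.19 and 0.0035. At 1.5 µg/ml the counts were 3 lower and 1 higher, against 3.07% and 2.4%, with medians of -0.075 and 0.0081. There 4 of 9 lay below and 1 above in every library, against 6.72% and 5.62%, and 0% of genes were called. Both antibody comparisons share the 3 isotype libraries. Since these 10 genes were selected with earlier results of these data known, the counts describe them and are no test of the group.

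The doses of each agent were also compared with each other. For 2.15 against 0.1 µM, 0 of 9 members had an unadjusted p under 0.05, against 5.3% of all genes, with 0% called, and 3 of 9 had groups that did not overlap, against 39.1%. For 5 against 1.5 µg/ml, 1 of 9 did (WWC1, above), against 5.64% of genes, with 0.0111% called, and for 1 of 9, PTPN14, the libraries did not overlap, against 10.8%.

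The effects of the 2 agents were compared directly in 1 fit of all 15 labelled libraries, with no control shared. No member passed for the higher doses (edgeR, 0 of 9, against 0.0782% of 10227 genes) or the lower doses (0 of 9, against 0.0196%). At an unadjusted p under 0.05 the higher doses differed in 2 members, against 9.06% of genes. For WWC1 the VT107 effect exceeded that of the antibody by 1.25 on the log2 scale (SE 0.40, adjusted p = 0.348), and for FRMD6 it was more negative by -0.76 (SE 0.27, adjusted p = 0.382). For AMOTL2 the difference was -0.33 (interval -0.74 to 0.076) and for NF2 -0.018 (interval -0.74 to 0.71). At the lower doses 1 member differed at that level, against 8.85% of genes, PTPN14 with -0.78 (SE 0.33, edgeR adjusted p = 0.501).

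The 2 controls were not at one level for every member. AMOTL2 was at 2950 ± 302 CPM in DMSO (SD, n = 2) and 974 ± 37.9 with the isotype (n = 3), so that its lowest VT107 library, at 1504 CPM, stood above every isotype library. FRMD6 was at 1083 ± 210 in DMSO and 662 ± 38.5 with the isotype, and its 4 VT107 libraries, at 392 to 619 CPM, lay below the isotype ones. NF2 was at 278 ± 50.1 and 234 ± 39.1 CPM and LATS2 at 122 ± 12.6 and 108 ± 10.9, where the libraries overlapped. AJUBA was lower in DMSO, 922 ± 29.4 against 1570 ± 48.0 CPM. These levels come from 2 experiments scaled apart, in which control agent and experiment cannot be told apart. For FRMD6 and AMOTL2, an effect of VT107 and a high level in the 2 DMSO libraries likewise cannot be told apart.

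Across the 15 labelled libraries, each experiment centred on its own mean, AMOTL2 and FRMD6 followed each other with Pearson's r of 0.84 (0.90 among the 6 VT107 libraries and 0.75 among the 9 antibody libraries). AMOTL2 and AJUBA had r of -0.91 among the VT107 libraries and -0.082 among the antibody libraries. AMOTL2 and NF2 had r of 0.75, LATS2 and FRMD6 0.69, LATS2 and AMOTL2 0.67, and LATS1 and SAV1 0.66. The points share libraries and controls, and the differences between groups are part of each r, so these are descriptions. Among the 8847 genes tested in both experiments, the profiles most like that of AMOTL2 were those of ENSG00000119681 (r = 0.94) and ENSG00000211455 (r = 0.91), and the profiles most like that of LATS2 were those of ENSG00000078902 (r = 0.86) and ENSG00000203668 (r = 0.82).

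**Figure D3:**
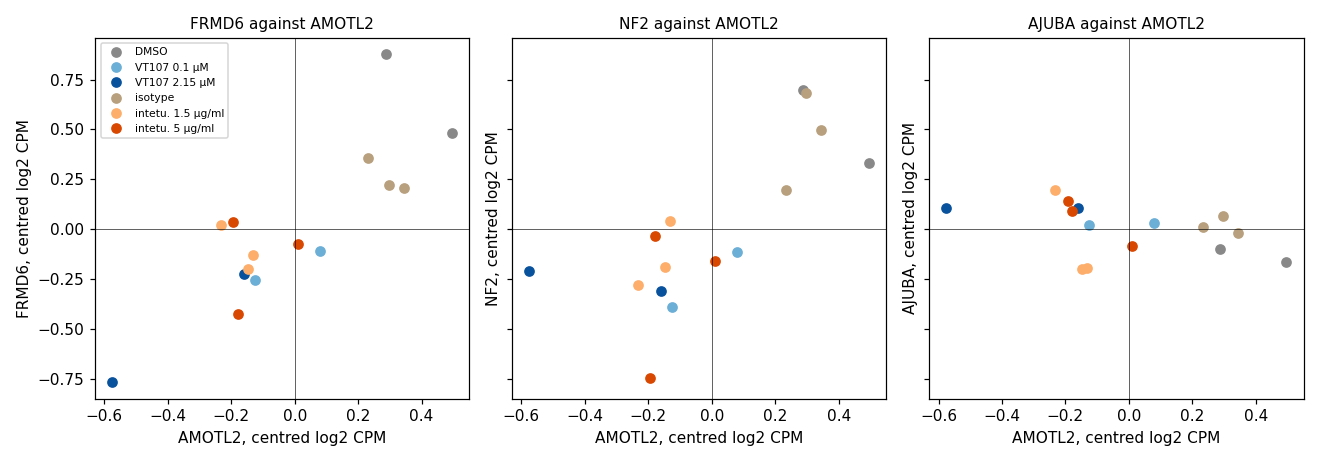
Centred log2 CPM of FRMD6, NF2 and AJUBA (y axes) against that of AMOTL2 (x axis) in the 15 labelled libraries, each experiment set to a mean of 0; each point is 1 library, coloured by group. The DMSO and isotype libraries sit at the upper right for FRMD6 and NF2; for AJUBA the DMSO libraries are the lowest of the VT107 experiment and the isotype libraries lie within the antibody range.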

How the data were processed

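The authors deposited raw counts per Ensembl gene of T>C reads, made with the SLAM DUNK pipeline per the labels' series design text, on GRCh38 (build from the submitters' processing notes). QuantSeq libraries read the 3′ end of each transcript, per the labels' protocols. The sources used here do not give the pipeline's version, annotation or conversion threshold. All 17 columns were matched to samples by name. The VT107 and antibody libraries were fitted apart with edgeR 4.0.16 (R 4.3.3): filterByExpr with a minimum count of 10 (10083 and 9024 genes), TMM scaling, and the two-sided quasi-likelihood F-test, with p-values adjusted over all genes by Benjamini-Hochberg. SEs are the log2 fold change over the root of F, and intervals are 95% and unadjusted. The fit was tried on simulated data with changes larger than those of the members, which does not test it for changes of their size. DESeq2 1.42.0 was an alternative.

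Replicates differed by more than counting noise (chi-square per degree of freedom 3.82 to 9.11), and each was counted as 1 library. That excess cannot tell separate cultures from technical repeats, and counts that are multiples of a common number also raise it. Libraries with the same replicate number showed no sign of pairing (correlations of deviations -0.030 to 0.044). These values cannot exclude a pairing, since counting noise can hide it. Members, with their symbols, and lists were chosen with earlier results of these data known. All 10 members are described; the lists of other pathway, target and cell type marker genes were not analysed here, because 0 of 59792 entries in the gene table used carry an Ensembl ID. For the same reason, the 2 genes most like AMOTL2 and LATS2 (highest r of log2 CPM, prior count 2) are given by ID. Of 9757 genes with counts enough to examine, 1456 (14.9%) have a common divisor above 1 in labelled libraries.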

Additional observations from a re-analysis of the deposited data

How the results depend on the processing

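Members called stayed at 0 in all 8 comparisons under every leave-one-out fit, total count scaling, a minimum count of 30, counts divided by their common divisor and the replicate block, and in the 6 comparisons in which the 2 groups were fitted alone. Of 1035 member values under alternatives, 969 kept direction and side of the threshold, 10 crossed to an adjusted p under 0.05 and 56 changed sign, 42 of them by leaving out 1 library and 14 by other settings. The 10 are FRMD6 and AMOTL2, all lower. Those of AMOTL2 all came from fits in which its counts were not divided by 3. DESeq2 called 1 member at 0.1 µM, 2 at 2.15 µM, and 1 at each antibody dose. Over all genes it called 183 and 245 of the 10083 entered at the VT107 doses. At 1.5 and 5 µg/ml it called 35 and 100 of the 9024 entered. DESeq2 gave no adjusted p for some genes entered, so fewer could be called. Among the members these included LATS1 and SAV1 at both VT107 doses, and LATS1, LATS2 and SAV1 at 1.5 µg/ml. Testing without a filter on low counts called 1 at 0.1 µM (FRMD6, adjusted p = 0.0464) and 2 at 2.15 µM (FRMD6, 0.00424; AMOTL2, 0.0285). Over all genes it called 171 and 199. That fit entered every gene with any count in the VT107 libraries. Their number, at most 19867, is not given here, so no share is stated. The fit of all 15 libraries called 2 at 2.15 µM (FRMD6, 0.00981; AMOTL2, 0.0187), and 155 of 10227 genes in all. Over alternatives, the adjusted p at 2.15 µM ranged from 0.000131 to 0.752 for FRMD6, and from 0.00282 to 0.867 for AMOTL2. The cause of these shifts was not tested. The longer motif TGGAATG or CATTCCA was found for 2 members, not 4, and in 4.18% of all windows.

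Counts over all genes moved widely. At 0.1 µM (main 0) they were 183 by DESeq2 (124 lower, 59 higher), 171 without the filter, 9 with a minimum count of 30 and 72 in the 15-library fit. At 2.15 µM (main 11, all lower) they were 5 with total count scaling, 245 by DESeq2 (188 lower, 57 higher), 199 without the filter, 33 with the minimum of 30, 5 with the replicate block, 1 with the 2 groups only and 155 in the 15-library fit. For 2.15 against 0.1 µM (main 0) they were 7 by DESeq2 and 4 without the filter. At 1.5 µg/ml (main 0) DESeq2 gave 35 and the 2 groups alone 1. At 5 µg/ml (main 8) they were 100 by DESeq2 (70 lower, 30 higher), 13 without the filter, 1 with the replicate block, 1 with the 2 groups only, 15 in the 15-library fit and 0 without both shallowest libraries, a setting chosen after seeing the data. For 5 against 1.5 µg/ml (main 1) DESeq2 gave 4, and the replicate block, the 15-library fit and leaving out both shallowest libraries gave 0. For the difference of the higher doses (main 8) they were 104 by DESeq2, 42 without the filter, 4 with the block and 3 without the shallowest. For the lower doses (main 2) they were 66, 16 and 1 by DESeq2, without the filter and with the block. Leaving out 1 library gave 1 to 26 genes at 2.15 µM (26 without DMSO replicate 2, 4 without DMSO replicate 1, 1 without either VT107 library), 0 to 3 at 5 µg/ml (3 without antibody replicate 3), 0 to 2 for 5 against 1.5 µg/ml, 1 to 25 and 1 to 15 for the differences of the higher and lower doses, and 0 elsewhere.

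No pairing of libraries by replicate number was seen, and the replicate block called no member. Signs changed as follows. With total count scaling, LATS1 at 0.1 µM was 0.011, SAV1 at 2.15 µM 0.10, NF2 between VT107 doses 0.037, and the higher-dose differences of LATS2 and NF2 0.047 and 0.096. Without the filter NF2 was 0.016 between doses and 0.0031 for the difference, and 0.0100 between doses with a minimum count of 30. With the replicate block WWC1 at 1.5 µg/ml was -0.049. Without both shallowest libraries, PTPN14 at 5 µg/ml was 0.0094, AMOTL2 between antibody doses -0.042, NF2 in the higher-dose difference 0.024, and WWC1 and AMOTL2 in the lower-dose difference -0.13 and -0.0070. Leaving out 1 library gave these ranges across 0. At 0.1 µM LATS1 spanned -1.08 to 0.48, SAV1 -2.97 to 0.027 and WWC1 -0.090 to 0.40. At 2.15 µM LATS1 spanned -0.26 to 0.49, LATS2 -0.69 to 0.069 and SAV1 -0.34 to 0.27. Between VT107 doses LATS1 spanned -0.40 to 1.15, LATS2 -0.56 to 0.20, SAV1 -0.073 to 2.91, NF2 -0.13 to 0.14 and PTPN14 -0.061 to 0.31. At 1.5 µg/ml WWC1 spanned -0.15 to 0.24, and at 5 µg/ml PTPN14 -0.24 to 0.0029 and AJUBA -0.012 to 0.099. Between antibody doses LATS1 spanned -0.044 to 0.37, SAV1 -0.090 to 0.28, NF2 -0.32 to 0.039, FRMD6 -0.14 to 0.085 and AMOTL2 -0.017 to 0.087. In the higher-dose difference LATS2 spanned -0.49 to 0.26 and NF2 -0.21 to 0.18, and in the lower-dose difference NF2 -0.37 to 0.016, WWC1 -0.11 to 0.36 and AMOTL2 -0.064 to 0.13. Counts were fewest for AMOTL1 (44 over the labelled libraries), SAV1 (476) and LATS1 (611).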
